A study of Homo sapiens with 12 samples.

Results

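The comparison described here asked how the response of HaCaT cells to blue light changed between 3 and 42 irradiations. For each of 12878 tested genes the light effect, meaning blue minus dark on the log2 scale, was taken after 42 and after 3 irradiations, and the difference of both effects (42 minus 3, the interaction) was tested. It used 8 of the 12 libraries of the series, 2 each of blue_42, dark_42, blue_3 and dark_3. HaCaT is a line of immortalized keratinocytes from human skin, of wild-type genotype in every group, and all groups stem from this single line. Per the labels, blue groups were irradiated in phosphate-buffered saline with a 408 nm LED source at 4.6 mW per cm2 to 50 J per cm2, 3 times a week for at most 14 weeks, a dose set to kill 50% of the cells. The dark groups are the controls matched to each number of irradiations, and the sources used here do not say how they were handled during sessions. RNA was read by QuantSeq 3' FWD sequencing, which counts about 1 fragment near the end of each transcript, so levels are given as CPM, which are counts scaled to the size of each library (0.367 to 0.482 CPM for 3 counts), with no scaling by length.

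Visible light of short wavelength is absorbed by flavins and porphyrins in cells, and the oxidants formed can damage mitochondria, membranes and DNA. Keratinocytes answer such damage with stress transcription factors, wound keratins and secreted defence proteins. They also carry sensors of foreign and misplaced RNA and DNA, which switch on interferon-stimulated genes through transcription factors activated by interferon signalling. An interaction compares responses, so a gene can enter it through the irradiated cells, through the dark controls, or through both.

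The 8 libraries held between 6220751 and 8183941 counts. All 15 keratinocyte markers were detected, with summed levels of 7841 and 7611 CPM in blue_42, 6599 and 6554 CPM in dark_42, 9168 and 8077 CPM in blue_3 and 7983 and 7992 CPM in dark_3. In bulk RNA, fewer cells of a kind and less RNA per cell cannot be told apart. Whether libraries a and b came from separate cultures is not said in the labels, and p-values may therefore reflect technical spread alone. The standard error of the interaction had a median of 0.199 on the log2 scale among genes above 10 CPM. Counts of 12700 genes were simulated at the depth of these libraries. Changes were set only in genes averaging at least 10 CPM, 66 or 67 genes per fold. There the interaction test found 17.9% of 1.5-fold, 77.6% of 2-fold and 100% of 4-fold changes, so most changes below 2-fold could not be called. Recovery at lower levels was not measured.

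The light effect differed between 42 and 3 irradiations for 56 genes, 0.435% of those tested, by edgeR's quasi-likelihood test at an adjusted p under 0.05. The effect was more positive at 42 for 35 genes, 0.272% of those tested. They included the secreted Wnt inhibitor SFRP1, the secreted glycoprotein OLFM4 and the barrier gene FLG. The effect was more negative at 42 for 21 genes, 0.163% of those tested. Among these were the glycosyltransferase B3GALT5, 5 interferon-stimulated genes and the stress factor ATF3. All 56 are protein coding, as are 91.2% of all tested genes. At an unadjusted p under 0.05 the number was 1450, and the median interaction over all tested genes was -0.02. Single libraries moved the count of 56. It was 4 without blue_42 a, 2 without blue_42 b, 209 without dark_42 a, 27 without dark_42 b, 171 without blue_3 a, 3 without blue_3 b, 4 without dark_3 a and 2 without dark_3 b. Without a library of the 14-irradiation groups it was 51 to 82. Each of the 56 genes kept the sign of its interaction in all 12 of these fits. SFRP1 and OLFM4 were called in 12 of 12, FLG in 9, and the remaining 53 genes in 3 to 8.

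**Figure D1:**
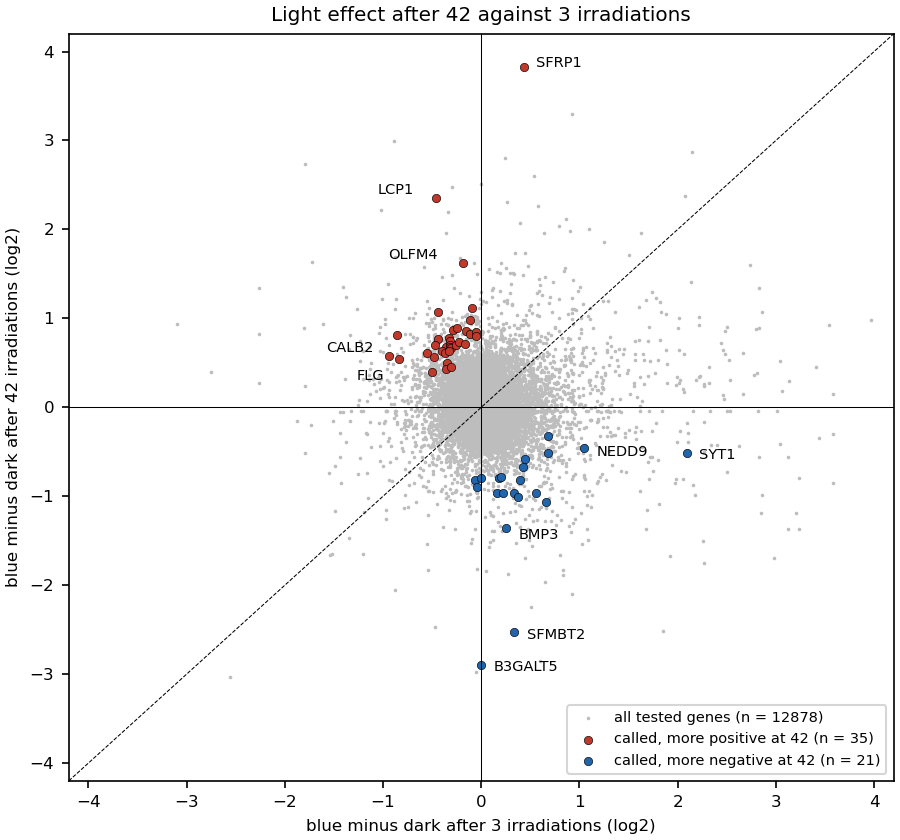
Light effect after 42 irradiations (y axis, log2) against the light effect after 3 irradiations (x axis, log2), 1 point per tested gene, with 11 genes outside the axes. The 35 called genes with the more positive effect at 42 (red) lie above the dashed line of equal effects, 34 of them left of 0 at 3 and SFRP1 right of it, and the 21 with the more negative effect (blue) lie below it.

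Taken separately, the 42-irradiation arm called 158 genes (1.23% of those tested, 108 higher and 50 lower in blue_42) and the 3-irradiation arm called 2 (0.0155%, both higher in blue_3). Of the 56 genes 41 were called at 42, 1 was called at 3, which was SYT1, and none was called at both. The count of 158 was 32 when blue_42 a was left out, 24 for blue_42 b, 35 for dark_42 b and 99 for dark_3 a or dark_3 b. The count of 2 was 0 when any of blue_42 a, blue_42 b, blue_3 b, dark_3 a, dark_3 b, blue_14 a and blue_14 b was left out, 6 for either dark_42 library and 4 for dark_14 a. For genes other than SYT1, the early part of a reversal described below does not rest on a call at 3 irradiations. It rests on library order, an unadjusted p or the size of the effect. The interaction test compares the stages and does not itself test the effect at 3. For 48 of the 56 genes the effect at 42 was the larger in size, against 53.35% of all tested genes. The 8 exceptions, with the larger effect at 3, were FLG, CALB2, CLCN6 and CYB5A with the more positive and ATF3, NEDD9, SYT1 and BBLN with the more negative effect at 42.

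A stage effect was taken as present where both blue libraries lay beyond both dark libraries. By that order 44 of the 56 genes reversed sign between 3 and 42 irradiations, 29 higher than dark at 42 and lower at 3, and 15 the other way round. The same pattern held for 9.25% of all tested genes. Another 10 genes had an effect at 42 alone, 5 higher and 5 lower in blue_42, where 24.4% of all tested genes had that pattern. SFRP1 was higher and OASL lower in blue at both stages, and no called gene had an effect at 3 alone. Effects had opposite signs for 52 of the 56, against 51.7% of all tested genes. With an unadjusted p under 0.05 asked of both stages, 29 genes reversed (0.714% of all tested genes). By the same threshold 24 changed at 42 alone (12.08% of all tested genes), and NEDD9 and SYT1 changed at 3 alone (5.7%). Genes of large interaction are the ones most likely to reverse, so these shares describe the called genes and are no evidence of reversal by themselves.

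Effects of at least 0.5 in size and opposite direction at both stages were found for 8 called genes, against 1.80% of all tested genes. These included FLG, CALB2, PHF8 and CLCN6, higher than dark at 42 and lower at 3. Also among them were ATF3, CEACAM6 and SYT1, lower at 42 and higher at 3. FLG (ENSG00000143631, chromosome 1 from 152302175 to 152325203, minus strand on GRCh38) encodes filaggrin, which bundles keratin in the cornified layer of the epidermis. It stood at 64.4 and 61.3 CPM in blue_42, against 51.2 and 34.9 CPM in dark_42, and 30.3 and 38.7 CPM in blue_3, against 57.1 and 66.1 CPM in dark_3. Both blue_42 libraries lay above both dark_42 libraries and both blue_3 libraries lay below both dark_3 libraries, so the groups did not overlap at either stage. The light effect was 0.55 ± 0.16 at 42 and -0.84 ± 0.16 at 3, a difference of 1.39 ± 0.22 (SE; edgeR adjusted p = 0.0132). CALB2 (ENSG00000172137, chromosome 16 from 71358713 to 71390438, plus strand), which encodes the calcium-binding protein calretinin, stood at 31.0 and 30.2 CPM in blue_42, against 20.4 and 20.8 CPM in dark_42, and 12.6 and 8.58 CPM in blue_3, against 21.6 and 19.6 CPM in dark_3. Its dark groups were level with each other, and its irradiated groups lay above them at 42 and below them at 3. The interaction was 1.51 ± 0.25 (edgeR adjusted p = 0.0132).

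PHF8, a histone demethylase, stood at 19.2 and 25.6 CPM in blue_42, against 15.9 and 13.5 CPM in dark_42, and 20.5 and 19.1 CPM in blue_3, against 28.5 and 29.5 CPM in dark_3. Its interaction of 1.16 ± 0.22 (edgeR adjusted p = 0.0228) came with dark_42 as the lowest and dark_3 as the highest of the 4 groups. CLCN6, an endosomal chloride and proton exchanger, stood at 8.26 and 6.80 CPM in blue_42, against 4.35 and 4.16 CPM in dark_42, and 4.64 and 5.50 CPM in blue_3, against 10.3 and 8.07 CPM in dark_3. The groups did not overlap at either stage, although the levels were low, and the interaction was 1.68 ± 0.35 (edgeR adjusted p = 0.0334). The last 300 bases of CLCN6 overlap NPPA on the opposite strand, and those of CTDNEP1 and CRTAP overlap other untested genes there. The sources used here do not state whether counting used strand, so counts of such genes are uncertain.

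**Figure D2:**
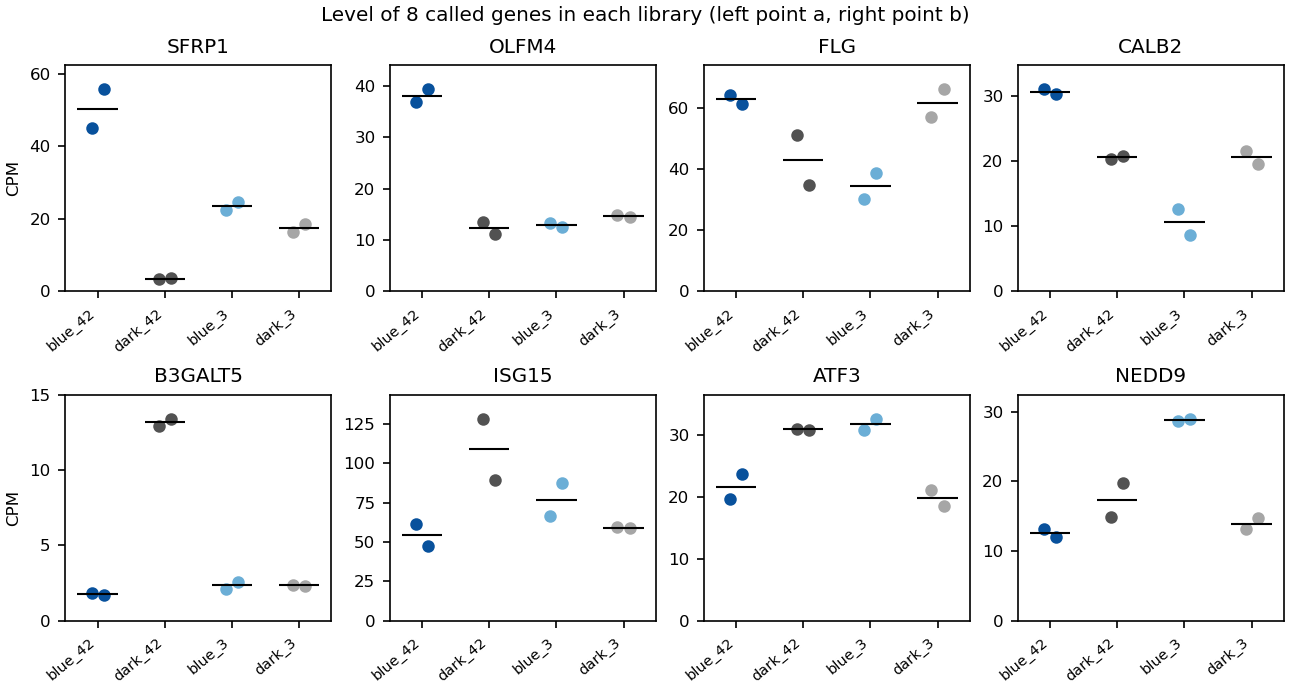
Level in CPM (y axis, from 0) of 8 called genes in each of the 8 libraries (x axis, 4 groups, points are libraries a and b, bars are means). For FLG and CALB2 the blue libraries lie above dark at 42 and below dark at 3, for ISG15, ATF3 and NEDD9 the order is the other way round, and SFRP1, OLFM4 and B3GALT5 differ chiefly at 42.

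ATF3 (ENSG00000162772, chromosome 1 from 212565334 to 212620777, plus strand), a transcription factor that is switched on by many kinds of stress, was the only called member of the list of immediate early factors. It stood at 19.6 and 23.8 CPM in blue_42, against 31.0 and 30.9 CPM in dark_42, and 30.9 and 32.7 CPM in blue_3, against 21.1 and 18.6 CPM in dark_3. The blue_42 libraries lay below dark_42 and the blue_3 libraries lay above dark_3, at levels close to those of dark_42. The effect was -0.51 ± 0.15 at 42 and 0.68 ± 0.16 at 3, a difference of -1.19 ± 0.22 (edgeR adjusted p = 0.0193). NEDD9, a scaffold of focal adhesions, stood at 13.2 and 12.02 CPM in blue_42, against 14.9 and 19.8 CPM in dark_42, and 28.6 and 28.98 CPM in blue_3, against 13.2 and 14.7 CPM in dark_3. The blue_3 libraries were far above the other 3 groups and alike, blue_42 was narrowly below dark_42, and the interaction was -1.50 ± 0.31 (edgeR adjusted p = 0.0334). 

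CEACAM6, an adhesion molecule of epithelial cell surfaces, stood at 10.1 and 6.68 CPM in blue_42, against 16.1 and 16.4 CPM in dark_42, and 13.6 and 12.5 CPM in blue_3, against 9.196 and 8.64 CPM in dark_3, and its interaction was -1.51 ± 0.28 (edgeR adjusted p = 0.0193). Both blue_42 libraries were below both dark_42 libraries, and both blue_3 libraries were above both dark_3 libraries.

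SYT1, the calcium sensor of synaptic vesicles, stood at 2.45 and 2.06 CPM in blue_42, against 3.84 and 2.60 CPM in dark_42, and 6.75 and 11.7 CPM in blue_3, against 2.06 and 2.16 CPM in dark_3. Its interaction of -2.61 ± 0.49 (edgeR adjusted p = 0.02) came with high levels in the 2 blue_3 libraries, which differed from each other. SYT1 is one of 23 neuronal markers, whose summed level was 144 and 124 CPM in blue_42, 148 and 109 CPM in dark_42, 264 and 300.1 CPM in blue_3 and 215 and 218 CPM in dark_3. NEFL, a neurofilament, gave 148 and 163 CPM of that sum in blue_3, against 146 CPM in each dark_3 library. The neuronal nuclear marker RBFOX3 stood at 1.72 and 1.78 CPM in blue_3, against 0.159 and 0.432 CPM in dark_3, while DCX and TUBB3 were at or near 0 in all 8 libraries. Red blood cell markers summed to 3.71 and 11.3 CPM in blue_3 and to under 2 CPM in each of the other 6 libraries. The part of these markers in the SYT1 result was not tested.

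Of the 43 gene lists described here, that of interferon-stimulated genes held the most called genes. Of 48 tested members of the list 5 were called, ISG15, DDX60, RIGI, IFIT2 and OASL, all with the more negative effect at 42, where 0.163% of all tested genes were called in that direction. The interaction was above 0 for 7 of 48 members, against 47.3% of all tested genes, with a median of -0.42 against -0.02 over all tested genes. The light effect was above 0 for 14 of 48 members at 42 (median -0.24), against 49.5% of all tested genes, and for 36 of 48 at 3 (median 0.18), against 52.4%. It had opposite signs for 30 of 48, against 51.7% of all tested genes. Over fits that left out 1 library the median interaction stayed between -0.49 and -0.31, the median at 42 between -0.32 and -0.17 and the median at 3 between 0.16 and 0.21. That the list lies below dark at 42 was known when the list was written. The members are not independent of each other, and no test of the list was made.

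ISG15 (ENSG00000187608, chromosome 1 from 1001138 to 1014540, plus strand) encodes a ubiquitin-like protein that is joined to other proteins in the antiviral response. It stood at 61.3 and 47.1 CPM in blue_42, against 128 and 89.5 CPM in dark_42, and 66.2 and 87.1 CPM in blue_3, against 59.5 and 58.8 CPM in dark_3. Both blue_42 libraries were below both dark_42 libraries, and both blue_3 libraries were above both dark_3 libraries. The effect was -1.01 ± 0.18 at 42 and 0.37 ± 0.18 at 3, a difference of -1.38 ± 0.25 (edgeR adjusted p = 0.028). DDX60, a helicase that aids RNA sensing, stood at 215 and 239 CPM in blue_42, against 369.7 and 414 CPM in dark_42, and 123 and 146 CPM in blue_3, against 118 and 116 CPM in dark_3, and its interaction was -0.99 ± 0.19 (edgeR adjusted p = 0.0246). RIGI, the sensor of viral RNA ends, stood at 48.2 and 46.4 CPM in blue_42, against 80.05 and 84.5 CPM in dark_42, and 31.7 and 34.8 CPM in blue_3, against 29.5 and 29.2 CPM in dark_3, with an interaction of -0.98 ± 0.20 (edgeR adjusted p = 0.028). Both had the order of ISG15, with no overlap at either stage and a wider gap at 42 than at 3. None of these genes was called for blue_3 against dark_3.

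IFIT2 and OASL differed from these in having no positive effect at 3. IFIT2, which binds viral RNA, stood at 147 and 131 CPM in blue_42, against 260.4 and 222 CPM in dark_42, and 94.2 and 116 CPM in blue_3, against 104 and 106 CPM in dark_3, and the blue_3 and dark_3 libraries overlapped. Its interaction of -0.80 ± 0.17 (edgeR adjusted p = 0.0435) matched its effect at 42, -0.80 ± 0.12. OASL, a relative of the oligoadenylate synthetases, stood at 133 and 122 CPM in blue_42, against 242 and 209 CPM in dark_42, and 55.6 and 59.1 CPM in blue_3, against 59.9 and 59.5 CPM in dark_3, with an interaction of -0.76 ± 0.17 (edgeR adjusted p = 0.0432). All 5 genes had a higher level in dark_42 than in dark_3, by 1.92 for OASL, 1.75 for DDX60, 1.49 for RIGI, 1.21 for IFIT2 and 0.88 for ISG15 on the log2 scale. Over the list, the dark change had a median of 1.04 and the change of blue_42 from blue_3 a median of 0.54. Of 48 members 36 were called higher in dark_42 than in dark_3, against 9.47% of all tested genes. Relative to the mean of dark_3, the mean log2 level of the list was 0.90 and 0.79 in blue_42, 1.19 and 0.95 in dark_42, 0.23 and 0.22 in blue_3 and 0.02 and -0.02 in dark_3. The 4 groups did not overlap, and both irradiated groups lay between the dark groups. Among members near the detection limit, the interaction was -1.67 ± 0.65 for BST2, which tethers virus particles to the cell, -1.89 ± 1.46 for MX2, an antiviral GTPase, and -1.89 ± 1.40 for IFI44L, with edgeR adjusted p-values of 0.333, 0.687 and 0.668. These 3 had the lowest interactions of the list with levels under 5 CPM in all 8 libraries.

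Interferon-stimulated genes are known for a promoter element bound by transcription factors of the interferon response, built on 2 copies of GAAA. The 250 bases before the start of each gene in RefSeq (GRCh38.p14) were searched on both strands for GAAA, any 2 bases, then GAAA, with overlapping matches counted. The motif stood before 3.07% of 27305 RefSeq genes, 2.37% of 10135 tested genes with an entry and 57.9% of the 38 listed interferon-stimulated genes with an entry. Of the 5 called genes 3 had an entry, ISG15 and DDX60 with 2 matches each and RIGI with none. These windows are shown because both genes reversed sign by library order between the stages, although neither was called at 3 irradiations. The motif is in capitals on the strand of the gene, 5′ to 3′. The windows come from chr1:1013359-1013424 (plus strand) for ISG15 and chr4:168318771-168318865 (minus strand) for DDX60.
ISG15: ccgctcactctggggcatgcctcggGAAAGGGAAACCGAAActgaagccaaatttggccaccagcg
DDX60: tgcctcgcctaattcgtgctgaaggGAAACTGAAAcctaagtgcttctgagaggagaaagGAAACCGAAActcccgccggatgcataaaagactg
The first match lies 113 bases before the RefSeq start of ISG15, where both matches overlap, and 88 bases before that of DDX60. The ISG15 window lies within the GENCODE span given above for this gene, which begins farther upstream than the RefSeq start. A match describes the sequence and shows neither binding nor a cause.

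**Figure D3:**
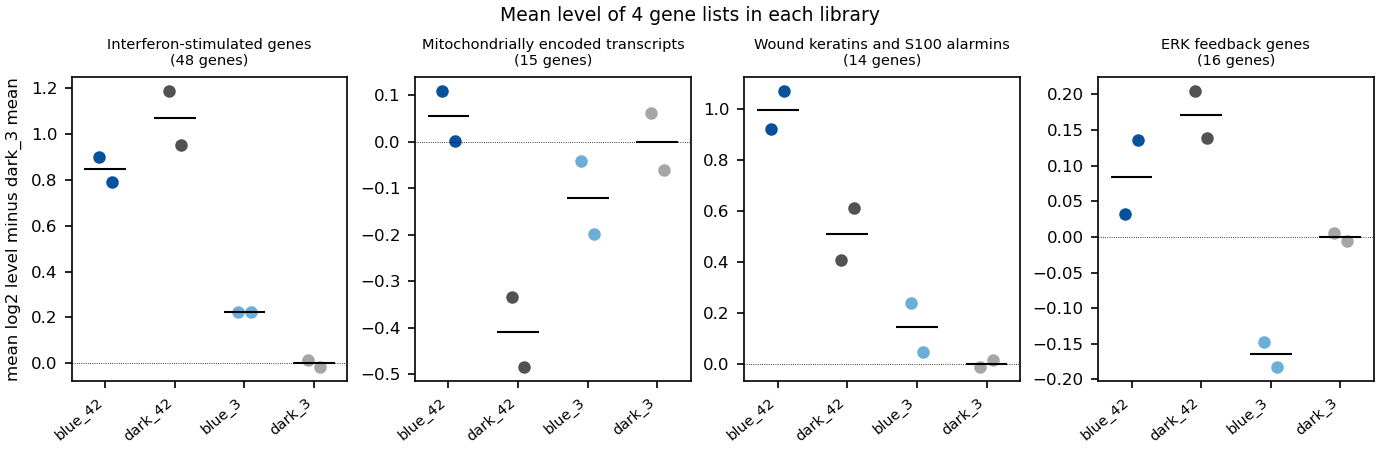
Mean log2 level of 4 gene lists relative to the dark_3 mean (y axis) in each of the 8 libraries (x axis, 4 groups, points are libraries a and b, bars are means). Interferon-stimulated genes are lower in blue_42 than in dark_42 and higher in blue_3 than in dark_3, and the mitochondrial list stands lowest in dark_42.

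SFRP1 and OLFM4 were called in every fit tried. SFRP1 (ENSG00000104332, chromosome 8 from 41261958 to 41309497, minus strand) binds Wnt ligands outside the cell and blocks their signal. It stood at 45.2 and 55.7 CPM in blue_42, against 3.46 and 3.64 CPM in dark_42, and 22.5 and 24.8 CPM in blue_3, against 16.3 and 18.6 CPM in dark_3. The irradiated libraries lay above the dark ones at both stages, with a blue to dark ratio of 14.2 at 42 and 1.35 at 3, and the interaction was 3.39 ± 0.26 (edgeR adjusted p = 2.51e-07). Both arms moved, since dark_42 was -2.29 from dark_3 and blue_42 was 1.10 from blue_3 on the log2 scale. OLFM4 (ENSG00000102837, chromosome 13 from 53028759 to 53052057, plus strand), a secreted olfactomedin of mucosal defence, stood at 36.9 and 39.3 CPM in blue_42, against 13.6 and 11.2 CPM in dark_42, and 13.2 and 12.5 CPM in blue_3, against 14.9 and 14.4 CPM in dark_3. Here blue_42 alone stood apart, and the other 3 groups lay within 11.2 to 14.9 CPM. Its interaction was 1.81 ± 0.24 (edgeR adjusted p = 0.00138), and the effect at 3 of -0.19 ± 0.18 is small although its libraries do not overlap.

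PTK7 and EFNA1 showed an effect at 42 alone. PTK7, a receptor-like pseudokinase of planar cell polarity and Wnt signalling, stood at 97.9 and 99.0 CPM in blue_42, against 45.3 and 45.6 CPM in dark_42, and 96.3 and 75.3 CPM in blue_3, against 96.4 and 87.4 CPM in dark_3. Its interaction of 1.21 ± 0.20 (edgeR adjusted p = 0.0135) came with dark_42 below the other 3 groups. EFNA1, a membrane-bound ligand of Eph receptors, stood at 100.2 and 101 CPM in blue_42, against 61.7 and 46.7 CPM in dark_42, and 55.6 and 39.5 CPM in blue_3, against 53.6 and 60.1 CPM in dark_3, and here blue_42 was above the other 3 groups, with an interaction of 1.14 ± 0.22 (edgeR adjusted p = 0.028). The other late genes on this side were TBCB, a tubulin-folding cofactor, at 1.01 ± 0.21, DNPH1, a hydrolase of nucleotides, at 0.90 ± 0.19, and LYPLA2, a protein depalmitoylase, at 0.89 ± 0.17. In all 3 the blue_3 and dark_3 libraries overlapped.

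B3GALT5 led the late genes of the other sign. B3GALT5 (ENSG00000183778, chromosome 21 from 39556442 to 39673137, plus strand), which adds galactose to glycan chains, stood at 1.81 and 1.70 CPM in blue_42, against 12.9 and 13.4 CPM in dark_42, and 2.12 and 2.59 CPM in blue_3, against 2.38 and 2.30 CPM in dark_3. It was high in both dark_42 libraries and level in the other 3 groups, so the light effect was -2.90 ± 0.28 at 42 and -0.00 ± 0.37 at 3 (interaction -2.89 ± 0.48, edgeR adjusted p = 0.0132). SFMBT2, a polycomb group protein, stood at 1.03 and 0.728 CPM in blue_42, against 5.12 and 5.20 CPM in dark_42, and 2.91 and 4.05 CPM in blue_3, against 3.01 and 2.45 CPM in dark_3, with blue_42 below all other groups and an interaction of -2.87 ± 0.51 (edgeR adjusted p = 0.0176). IL7R, a receptor subunit for interleukin-7 and TSLP, stood at 82.0 and 95.7 CPM in blue_42, against 153 and 179 CPM in dark_42, and 64.1 and 66.5 CPM in blue_3, against 68.7 and 65.8 CPM in dark_3. As for B3GALT5, dark_42 was the group that stood apart, and the interaction was -0.86 ± 0.18 (edgeR adjusted p = 0.036). CEP192, which organizes the centrosome for mitosis, had an interaction of -1.13 ± 0.23 (edgeR adjusted p = 0.0282), with 17.9 and 17.7 CPM in blue_42 and 30.9 and 38.9 CPM in dark_42.

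**Figure D4:**
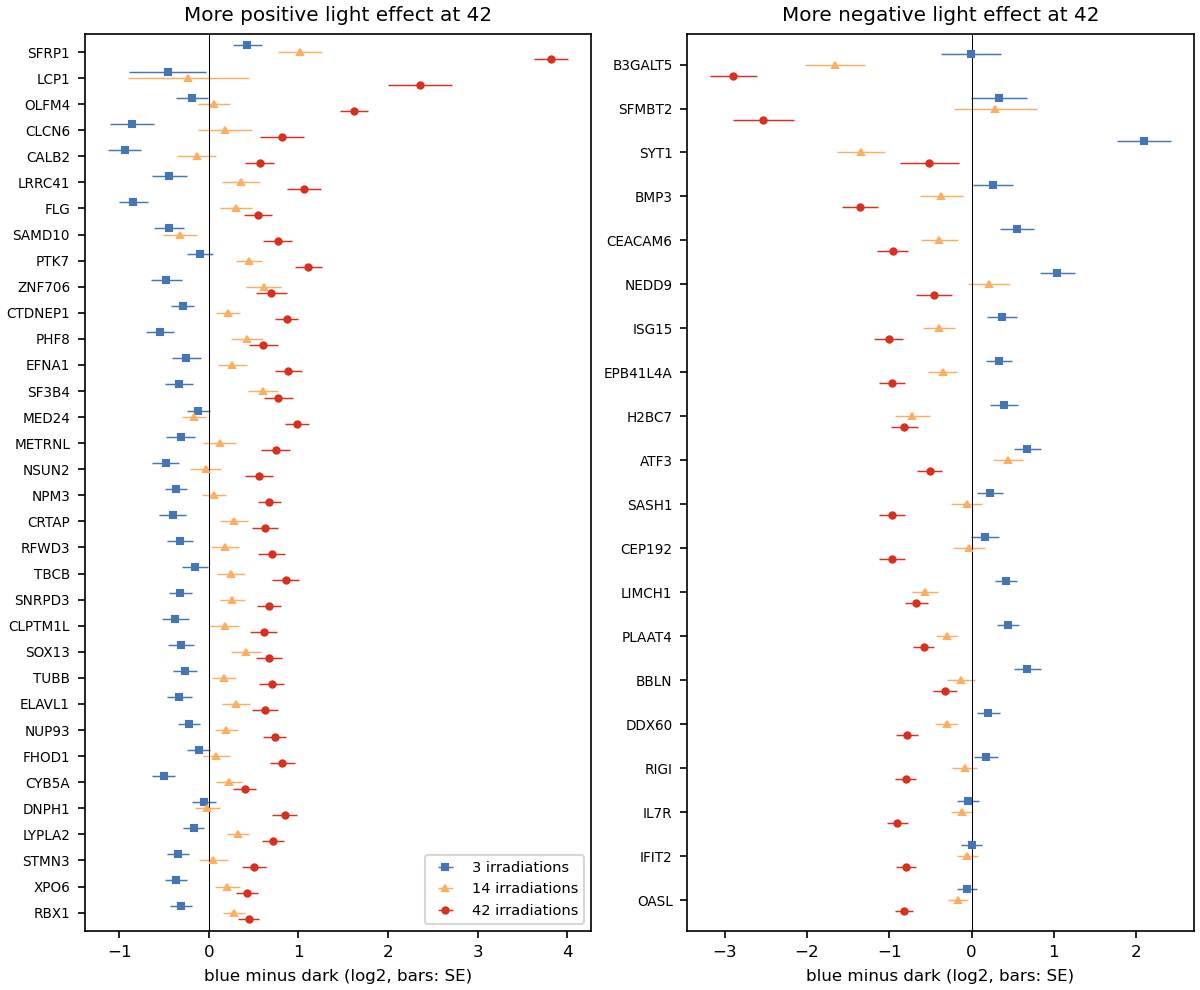
Light effect (x axis, blue minus dark, log2) of 54 of the 56 called genes (y axis, ordered by the size of the interaction) after 3 (squares), 14 (triangles) and 42 irradiations (circles), with bars of 1 standard error. Circles and squares lie on opposite sides of 0 for 50 of them, and most triangles lie between them.

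The remaining genes with a more positive light effect at 42 serve many tasks, and they are grouped here by known role after their values were seen. Genes of RNA handling included SF3B4, a splicing factor subunit, at 1.10 ± 0.22, SNRPD3, a core protein of spliceosomal particles, at 0.99 ± 0.19, ELAVL1, which stabilizes AU-rich messages, at 0.96 ± 0.20, and NSUN2, an RNA methyltransferase, at 1.04 ± 0.22. For all 4 the groups did not overlap at either stage, with blue above dark at 42 and below dark at 3, and edgeR adjusted p lay between 0.0214 and 0.0365. The reads of SNRPD3 may include those of GGT1, a tested gene that overlaps its end on the same strand. Genes of the microtubule system included TUBB, a beta-tubulin, at 0.96 ± 0.19 and STMN3, a microtubule destabilizer, at 0.85 ± 0.18, and TUBB has close relatives among which reads could be split. The nuclear pore gene NUP93 at 0.96 ± 0.17, the nuclear export receptor XPO6 at 0.79 ± 0.18 and the nuclear envelope phosphatase CTDNEP1 at 1.16 ± 0.18 form another set.

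CTDNEP1 stood at 370.5 and 357 CPM in blue_42, against 227 and 171 CPM in dark_42, and 316 and 275 CPM in blue_3, against 350.2 and 374 CPM in dark_3. Its dark_42 libraries were the lowest of the 8 and blue_42 lay near dark_3, with no overlap between blue and dark at either stage (edgeR adjusted p = 0.0132). MED24, a subunit of the Mediator complex, stood at 95.2 and 86.2 CPM in blue_42, against 51.7 and 39.8 CPM in dark_42, and 124 and 114 CPM in blue_3, against 134 and 125 CPM in dark_3, with an interaction of 1.10 ± 0.19 (edgeR adjusted p = 0.0135). The dark_42 libraries were again the lowest of all. The effect at 3 of -0.11 ± 0.13 is no larger than its standard error even though the libraries did not overlap, so the reversal of MED24 rests on library order. LCP1, an actin-bundling protein best known from leukocytes, had the second largest interaction of those above 0, at 2.82 ± 0.57 (edgeR adjusted p = 0.028). It stood at 5.94 and 5.46 CPM in blue_42, against 1.02 and 1.17 CPM in dark_42, and 1.32 and 1.29 CPM in blue_3, against 1.74 and 1.87 CPM in dark_3, so that blue_42 alone was well above a low level, and the leukocyte markers summed to 1.44 to 6.63 CPM in the 8 libraries, whose part in the result was not tested. LRRC41, a substrate adapter of ubiquitin ligases, had an interaction of 1.51 ± 0.27 (edgeR adjusted p = 0.0193) and overlaps the tested gene RAD54L on the opposite strand. Among 11 other genes the interaction lay between 0.76 for RBX1, the RING subunit of cullin ubiquitin ligases, and 1.21 for SAMD10. They included the ubiquitin ligase RFWD3, which acts at stalled replication forks, at 1.02 ± 0.21, the histone chaperone NPM3 at 1.04 ± 0.18, the actin-assembling formin FHOD1 at 0.93 ± 0.19 and the electron carrier CYB5A at 0.90 ± 0.18. The collagen-modifying factor CRTAP had 1.03 ± 0.21, the secreted METRNL 1.06 ± 0.22, the transcription factor SOX13 0.98 ± 0.21, CLPTM1L 0.99 ± 0.22 and ZNF706 1.18 ± 0.24. All 11 were above dark at 42 and below it at 3 in library order, with edgeR adjusted p between 0.0135 and 0.0487.

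On the other side BMP3, a secreted bone morphogenetic protein, had an interaction of -1.62 ± 0.33 (edgeR adjusted p = 0.028) and stood at 6.20 and 8.74 CPM in blue_42, against 15.5 and 23.0 CPM in dark_42, and 10.2 and 10.4 CPM in blue_3, against 8.24 and 8.93 CPM in dark_3. EPB41L4A, a membrane skeleton protein, followed at -1.30 ± 0.22, the signalling scaffold SASH1 at -1.19 ± 0.22, the actomyosin regulator LIMCH1 at -1.10 ± 0.19 and the phospholipase PLAAT4 at -1.02 ± 0.19. The blue_42 libraries were below both dark_42 libraries and the blue_3 libraries above both dark_3 libraries for all 5. BBLN reversed in the same way at -1.004 ± 0.22. H2BC7, a histone H2B gene with near-identical copies, had an interaction of -1.21 ± 0.24, and its reads could be split among those copies.

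The interaction equals the change between the irradiated groups minus the change between the dark groups. For 43 of the 56 called genes the dark groups differed more, against 59.3% of all tested genes. Between dark_42 and dark_3, 2284 genes were called (17.7% of those tested), and between blue_42 and blue_3, 1002 (7.78%). Among the 56 genes 47 were called between the dark groups and 23 between the irradiated groups. The 35 genes that were more positive at 42 had a median of -0.91 for dark_42 minus dark_3 and 0.19 for blue_42 minus blue_3, and the 21 others had 0.92 and -0.50. The lowest of the 4 group means was dark_42 for 32 of the 35 genes, the exceptions being FLG, CALB2 and EFNA1, against 28.3% of all tested genes. The highest was dark_42 for 17 of the 21, the exceptions being ATF3, NEDD9, SYT1 and LIMCH1, against 30.0% of all tested genes. All 4 of these exceptions were highest in blue_3. As dark_42 enters the interaction itself, these shares describe the called genes only. The count of 2284 was 833 when dark_42 b was left out, 765 for dark_3 a and 840 for dark_3 b, and the count of 1002 was 258 for blue_42 b, 416 for blue_3 a and 402 for blue_3 b.

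The 14-irradiation libraries took no part in the contrast and give a reading between the stages. They held 3517401 and 2073160 counts in blue_14 and 3561392 and 7950222 in dark_14. All but dark_14 b were shallower than each of the libraries compared. The light effect at 14 had the sign of the effect at 42 for 45 of the 56 genes, against 53.1% of all tested genes. It lay between the effects at 3 and 42 for 53, the exceptions including MED24 and SYT1, against 34.0% of all tested genes, and a wide gap makes that likelier. The 35 genes with the more positive effect at 42 had median effects of -0.32 at 3, 0.21 at 14 and 0.72 at 42, and the 21 others had 0.34, -0.16 and -0.82. B3GALT5 had -1.66 ± 0.36 at 14 and SFRP1 had 1.02 ± 0.25, between their values at 3 and 42. OLFM4 had 0.06 ± 0.18, ISG15 -0.39 ± 0.20 and SYT1 -1.35 ± 0.29. For ATF3 (0.44 ± 0.18) and NEDD9 (0.22 ± 0.26) the effect at 14 still had the sign of the effect at 3. No gene was called for blue_14 against dark_14 by edgeR, and 758 had an unadjusted p under 0.05.

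Of 43 gene lists, 2 reversed as a whole by their medians, the interferon-stimulated genes and the mitochondrially encoded transcripts. The rule asked for medians at 42 and 3 on opposite sides of the median of all genes, each at least 0.1 away, with at least 2 in 3 members on the list's side of 0 at each stage. Of 15 mitochondrial transcripts 14 had a positive interaction, with a median of 0.62 against -0.02 over all tested genes. The light effect was above 0 for 14 at 42 (median 0.51) and below 0 for 12 at 3 (median -0.09), and it had opposite signs for 13. None was called for the interaction, and MT-ND1, a complex I subunit, had the smallest edgeR adjusted p of 0.115 at 0.83 ± 0.22. The early part of this reversal is slight. The median at 3 was -0.03 without dark_3 a, -0.05 without blue_3 b and -0.0983 with a 5 CPM filter (-0.0968 less the median of all tested genes), and in these 3 fits the list met the rule for an effect at 42 alone in place of that for a reversal. Without blue_3 a it was -0.17. Over fits without 1 library the median interaction ran from 0.51 to 0.69.

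MT-ND4, another complex I subunit, stood at 10780 and 11890 CPM in blue_42, against 7068 and 7604 CPM in dark_42, and 8164 and 7149 CPM in blue_3, against 8613 and 7490 CPM in dark_3. Only blue_42 lay apart from the other groups, all of which overlapped or touched between 7068 and 8613 CPM. Its interaction was 0.70 ± 0.20 (edgeR adjusted p = 0.142), and that of the cytochrome oxidase subunit MT-CO1 was 0.63 ± 0.18 (edgeR adjusted p = 0.146). The ribosomal RNAs of the mitochondrion lay near 0, with an interaction of 0.06 ± 0.19 for MT-RNR2 and -0.01 ± 0.29 for MT-RNR1. The mean log2 level of the list relative to the dark_3 mean was 0.11 and 0.00 in blue_42, -0.33 and -0.48 in dark_42, -0.04 and -0.20 in blue_3 and 0.06 and -0.06 in dark_3. Irradiated and dark libraries were apart at 42 and overlapped at 3. The nuclear genes of the respiratory chain had 34 of 68 members above 0 and a median interaction of -0.02.

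**Figure D5:**
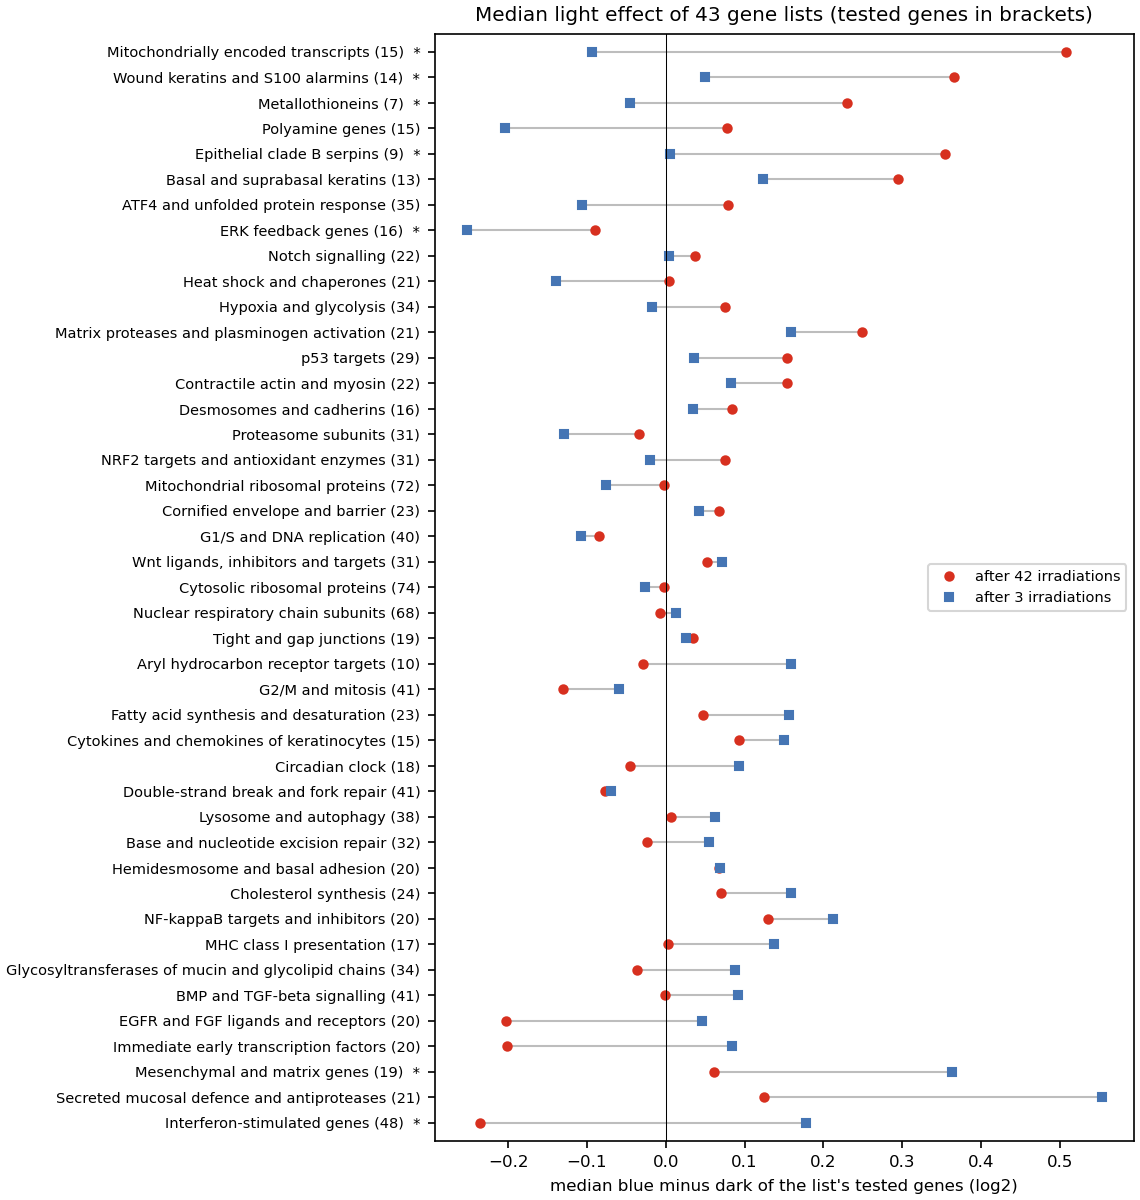
Median light effect (x axis, log2) after 42 (circles) and after 3 irradiations (squares) of 43 gene lists, ordered by the median interaction of their members, with the number of tested genes in brackets and an asterisk on lists that met the rule for a reversing, late or early pattern. The widest gaps are those of the mitochondrial list at 0.51 and -0.09 and, the other way round, of the secreted mucosal defence list at 0.13 and 0.55 and the interferon list at -0.24 and 0.18.

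A list counted as late where its median at 42, less that of all tested genes, was at least 0.2 in size, with 2 in 3 members on its side of 0, and its median at 3, less that of all tested genes, was under 0.1. It counted as early the other way round. The lists that met the rule for an effect at 42 alone were wound keratins and S100 alarmins, clade B serpins and metallothioneins. No member of any of them was called for the interaction. Of 14 wound keratins and alarmins 13 were above 0 at 42 (median 0.37) and 9 at 3 (median 0.05), and the median interaction was 0.42, with 11 above 0. That median was 0.26 without dark_42 a and 0.28 without blue_42 b, and the late pattern held in all 12 fits without 1 library. S100A8, a subunit of the alarmin calprotectin, stood at 96.3 and 155 CPM in blue_42, against 38.4 and 51.5 CPM in dark_42, and 10.1 and 7.61 CPM in blue_3, against 7.45 and 5.91 CPM in dark_3, and its interaction was 1.06 ± 1.08 (edgeR adjusted p = 0.789). The blue_42 libraries lay above dark_42 but far from each other. Levels at 3 were low in all 4 libraries, and both blue_3 libraries also lay above both dark_3 libraries. By library order S100A8 was thus higher in blue at both stages. S100A7, another alarmin, had 1.23 ± 1.67, S100A6 0.78 ± 0.27 and the wound keratin KRT6A 0.58 ± 0.34, none of them called. KRT17, a wound keratin, went against the list at -0.52 ± 0.17 (edgeR adjusted p = 0.229), with 762 and 798 CPM in blue_3 and 548 and 573 CPM in dark_3.

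Of 9 serpins, inhibitors of proteases inside epithelial cells, 7 were above 0 at 42 (median 0.35) and 5 at 3 (median 0.01). The median at 42 was 0.09 without blue_42 b, 0.199 without dark_42 a and 0.18 without dark_42 b, and the late pattern was lost in these 3 fits. With no filter on low counts it was lost as well, as under 2 in 3 members then lay above 0 at 42. Of 7 metallothionein genes and regulators 5 were above 0 at 42 (median 0.23) and 3 at 3 (median -0.05), and 6 had opposite signs. Relative to the dark_3 mean, the mean log2 level of this list was 0.24 and -0.335 in blue_42 and 0.02 and -0.39 in dark_42. At 3 it was 0.39 and 0.19 in blue_3 and -0.26 and 0.26 in dark_3. Irradiated and dark libraries thus overlapped at both stages, and the pooled standard deviation between replicates was 0.32. The late pattern of this list rests on the medians of its members. The late pattern held in 8 of 12 fits without 1 library. The median at 3 was -0.24 without blue_3 a and -0.11 without dark_3 a, the median at 42 was 0.18 without dark_42 b, and without blue_42 a 57.1% of members lay above 0 at 42. MT1X, a metal-binding metallothionein, was called at 42 with 0.55 ± 0.14 (edgeR adjusted p = 0.0493), and its interaction was 0.60 ± 0.19 (edgeR adjusted p = 0.217). With no filter on low counts, which adds copies near 0, the late pattern was lost too and the median interaction of this list was -0.05, against 0.38 here. It was 0.17 without blue_3 b and 0.24 without dark_3 b.

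An effect at 3 alone described 2 lists, the ERK feedback genes and the mesenchymal genes. Of 16 ERK feedback genes, phosphatases and Sprouty proteins that damp growth factor signals, 10 were below 0 at 42 (median -0.09) and 13 at 3 (median -0.25). The median at 42 was -0.14 without dark_42 b and -0.103 with no filter on low counts, and the early pattern was lost in both fits. DUSP7, a phosphatase of ERK, stood at 22.6 and 18.1 CPM in blue_42, against 17.2 and 9.36 CPM in dark_42, and 16.3 and 9.71 CPM in blue_3, against 20.4 and 19.4 CPM in dark_3, and its interaction was 1.21 ± 0.35 (edgeR adjusted p = 0.187). Its libraries did not overlap at either stage, but blue_3 and dark_42 each spread widely. PHLDA1, a target of the ERK pathway, had 0.13 ± 0.13 at 42 and -0.30 ± 0.13 at 3. Of 19 mesenchymal and matrix genes 10 were above 0 at 42 (median 0.06) and 14 at 3 (median 0.36), with no call, and several stood near or below 1 CPM. The early pattern was lost with a 5 CPM filter, where 13 members had medians of 0.11 at 42 and 0.08 at 3, with no filter, where 30 members had 0.00 and 0.15, and in the 8 libraries alone, where 16 members had 0.0983 (0.102 less the median of all tested genes) and 0.26. With the 5 CPM filter the median interaction was -0.0018, against -0.30 here. Fibroblast markers summed to 10.5 and 11.5 CPM in blue_42, 9.09 and 11.6 CPM in dark_42, 11.4 and 8.58 CPM in blue_3 and 6.82 and 7.78 CPM in dark_3, and their part in that list was not tested.

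Genes of differentiation and stress that were followed whatever their values gave no call for the interaction other than FLG, SFRP1, B3GALT5, ISG15 and IFIT2. IVL, which encodes the cornified envelope protein involucrin, stood at 76.3 and 77.9 CPM in blue_42, against 68.8 and 86.2 CPM in dark_42, and 193 and 164 CPM in blue_3, against 106 and 106 CPM in dark_3. It was high in blue_3 alone and differed from FLG in direction, with an interaction of -0.76 ± 0.21 (edgeR adjusted p = 0.146). CDKN1A, the p53-induced cell cycle inhibitor, stood at 61.6 and 76.7 CPM in blue_42, against 68.4 and 75.4 CPM in dark_42, and 65.4 and 62.2 CPM in blue_3, against 44.4 and 44.2 CPM in dark_3. The interaction was -0.58 ± 0.23 (edgeR adjusted p = 0.333), and the dark groups differed as much as the groups at 3. EGR1, an immediate early transcription factor, had -0.30 ± 0.23 at 42 and 0.72 ± 0.23 at 3, an interaction of -1.02 ± 0.33 (edgeR adjusted p = 0.272).

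For several genes the effects at both stages were alike within the error. FASN, the fatty acid synthase, had 0.54 ± 0.12 at 42 and 0.43 ± 0.12 at 3, and the 95% interval of the difference ran from -0.25 to 0.48. SCD, the stearoyl-CoA desaturase, had 0.30 ± 0.11 and 0.43 ± 0.11, with an interval from -0.45 to 0.20. The opsin OPN3 had 0.34 ± 0.13 and 0.30 ± 0.12, with an interval from -0.33 to 0.40, and the chaperone DNAJB1 had 0.09 ± 0.11 and 0.15 ± 0.11, with an interval from -0.38 to 0.26. The proliferation marker MKI67 had an interaction of -0.17 ± 0.19, with an interval from -0.58 to 0.23. These intervals leave room for a moderate change, and a missed threshold does not show equal effects.

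For the remaining followed genes no interaction was called. Among keratins it was 0.47 ± 0.35 for KRT5, 0.25 ± 0.18 for KRT14, 0.99 ± 1.00 for KRT1 and 0.11 ± 0.27 for KRT10. The elastase inhibitor PI3 had 1.08 ± 1.05, the haem oxygenase HMOX1 -1.40 ± 0.65, the stress cytokine GDF15 0.25 ± 0.81 and the chemokine CXCL8 -0.06 ± 0.46, each below 11 CPM in all or most libraries except PI3 at 42. IL1B, an inflammatory cytokine, had 0.60 ± 0.20, the heat shock gene HSPA1A 0.37 ± 0.16 and the antiviral GTPase MX1 -0.46 ± 0.25. For these 11 genes the smallest edgeR adjusted p was 0.217 and the largest 0.981.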

How the data were processed

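Whole-number read counts per gene were deposited by the authors in 1 table with 1 column per library. Per the submitters' processing notes they used STAR, featureCounts and the GRCh38 build. The sources used here give neither versions, annotation and strand setting nor the use of molecular identifiers. Groups came from the sample titles. From the counts, 12878 of 45372 genes passed filterByExpr at a minimum count of 10. They were scaled by TMM and fitted in edgeR 4.0.16 (R 4.3.3, limma 3.58.1) by a robust quasi-likelihood model with 6 group means over all 12 libraries. The residual degrees of freedom were 6, and two-sided tests had Benjamini-Hochberg adjustment over all tested genes. CPM are counts scaled to TMM-adjusted library totals, of which 3 counts make 0.367 to 0.482 CPM in the 8 libraries compared. Errors are standard errors from the test statistic. Positions came from GENCODE release 29. In each group the 2 libraries differed beyond sampling noise, with chi-square values of 1.61 to 7.98 per degree of freedom. Each was counted as 1 replicate, although this spread does not show that they came from separate cultures.

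The comparison, gene lists and pattern rules were chosen with earlier results of these data known. Named genes were called genes that reversed, stood on a list, were late only or had the 12 largest interactions each way at 10 CPM or more, 27 genes followed whatever their values, and up to 4 leading members of each patterned list. Alternatives were RLE scaling, DESeq2 1.42.0, no filter, a 5 CPM filter, the replicate block, non-robust estimation, a fit of the 8 libraries alone and leaving out each library. The interaction test was tested on simulated counts, where 12 of 12500 unchanged genes were called. For 2 called genes the values are not reported here.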

Additional observations from a re-analysis of the deposited data

Results flagged for a closer look

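The light effect differed between 42 and 3 irradiations, by the edgeR test of the interaction itself, for 56 genes, of which 54 are given below. Values are log2 differences of the effects (42 minus 3). Of the 8 libraries compared, leaving out a single one other than dark_42 a, dark_42 b or blue_3 a left 2 to 4 calls.

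The largest more positive effects at 42 were 3.39 for SFRP1, 2.82 for LCP1, 1.81 for OLFM4, 1.68 for CLCN6, 1.51 for CALB2 and 1.51 for LRRC41. In the middle range the difference was 1.39 for FLG, 1.21 for SAMD10, 1.21 for PTK7, 1.18 for ZNF706, 1.16 for CTDNEP1, 1.16 for PHF8, 1.14 for EFNA1, 1.10 for SF3B4, 1.10 for MED24, 1.06 for METRNL, 1.04 for NSUN2, 1.04 for NPM3, 1.03 for CRTAP, 1.02 for RFWD3 and 1.01 for TBCB. Smaller ones included 0.99 for SNRPD3, 0.99 for CLPTM1L, 0.98 for SOX13, 0.96 for TUBB, 0.96 for ELAVL1, 0.96 for NUP93, 0.93 for FHOD1, 0.90 for CYB5A, 0.90 for DNPH1, 0.89 for LYPLA2, 0.85 for STMN3, 0.79 for XPO6 and 0.76 for RBX1.

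The largest more negative effects at 42 included -2.89 for B3GALT5, -2.87 for SFMBT2, -2.61 for SYT1, -1.62 for BMP3, -1.51 for CEACAM6 and -1.50 for NEDD9. In the middle range the difference was -1.38 for ISG15, -1.30 for EPB41L4A, -1.21 for H2BC7, -1.19 for ATF3, -1.19 for SASH1, -1.13 for CEP192, -1.10 for LIMCH1, -1.02 for PLAAT4 and -1.004 for BBLN. Smaller ones included -0.99 for DDX60, -0.98 for RIGI, -0.86 for IL7R, -0.80 for IFIT2 and -0.76 for OASL. With 2 libraries a group, no library could be checked for standing apart from its own group.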

How the results depend on the processing

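The number of genes with a changed light effect, 56, was 41 to 84 by a fit of the 8 libraries alone, RLE scaling, DESeq2, a 5 CPM filter and non-robust estimation. It was 288 with no filter on low counts and 92 with the replicate block. Fits that left out 1 library gave 2 to 209. The signs of all 56 were kept in every fit. DESeq2 gave no adjusted p for 4744 genes, and 48 of its 84 calls were among the 56. Libraries of the same letter deviated together between blue_42 and dark_42 (correlation 0.405), weakly between blue_3 and dark_3 (0.098) and in opposite directions between blue_14 and dark_14 (-0.286). Pairing was accepted only if every correlation was over 0.1, so the replicate block is given here only. At 42 the 158 calls were 246 in the 8 libraries alone and 420 with no filter, and 24 to 235 without 1 library. At 3 the 2 calls were 8 in the 8 libraries alone, 1 by DESeq2, 54 with no filter and 0 with the 5 CPM filter, the replicate block or non-robust estimation, and 0 to 6 without 1 library. Between the dark groups the 2284 calls were 765 to 2574 without 1 library, and between the irradiated groups the 1002 calls were 615 by DESeq2 and 258 to 1224 without 1 library. Sign reversals, 44 by library order, were 29 at an unadjusted p under 0.05 and 8 at a size of 0.5, and 165 with no filter. Late-only genes, 10, were 6 to 83. Both patterns were not counted without 1 of the 8 libraries, as library order then has 1 library on a side. The median interaction of metallothioneins reversed to -0.0525 with no filter. The cause of these changes was not tested.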

Other observations

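Genes of the ATF4 and unfolded protein response, which adapt cells to faulty protein folding, had no call for the interaction. Of 35 members 26 had a light effect above 0 at 42 (median 0.08) and 9 at 3 (median -0.11), and the median interaction was 0.15. Of 15 polyamine genes 12 were above 0 at 42 (median 0.08) and 6 at 3 (median -0.20), with a median interaction of 0.31. Heat shock genes had 11 of 21 above 0 at 42 and 5 at 3.

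Genes of cholesterol synthesis had 13 of 24 members above 0 at 42 (median 0.07) and 21 at 3 (median 0.16), and 5 had a positive interaction. Immediate early transcription factors had 7 of 20 members above 0 at 42 (median -0.20) and 13 at 3 (median 0.08), with opposite signs for 14 and ATF3 as the only call. Over all tested genes 49.5% lay above 0 at 42, 52.4% at 3 and 47.3% for the interaction.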
